A study of Mus musculus with 14 samples.

Results

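The genes described here are 48 mouse genes of DNA damage repair. They were chosen by symbol, and all 48 were found in the deposited table of 35275 genes. Their mRNA was measured by poly(A) RNA sequencing in 14 samples of 5 lines of mouse ovarian tumor cells grown for 5 days as tumorspheres, which are floating clusters of cells kept from attaching. KMF cells (n = 3) arose from ID8 cells, an ovarian epithelial line of C57Bl6 mice, by passage in vivo. FAK KO cells (n = 3, clone KT13) are 1 clone of KMF in which CRISPR/Cas9 editing put frame shifts into Ptk2, the gene of focal adhesion kinase (FAK). FAK-WT cells (n = 3) are KT13 cells given wild-type GFP-FAK by lentivirus, and FAK-R454 cells (n = 2) are KT13 cells given a kinase-inactive GFP-FAK in the same way. β-catenin ΔGSK cells (n = 3) are KT13 cells given by retrovirus a β-catenin that lacks the sites phosphorylated by GSK3β and is therefore stable. The 4 lines other than KMF thus share 1 clone and its edited Ptk2, which was enriched with puromycin, and 3 of them also went through viral delivery, selection with puromycin or hygromycin, and sorting. The effects of cloning and selection therefore cannot be told apart from the loss of FAK in comparisons with KMF. The labels call the RNA samples independent, and the methods, which speak of KMF and ID8 cells there, place them at various passages. Separate cultures are not described for the other lines, so p-values measure only the spread between these samples.

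Ptk2 mRNA was 17.6 to 20.5 FPKM in FAK KO, 23.9 to 24.8 in KMF, 42.3 to 45.4 in FAK-WT, 59.2 to 65.5 in FAK-R454 and 15.1 to 15.9 in β-catenin ΔGSK samples. FPKM are fragments scaled to gene length and to library size, and they count edited and delivered Ptk2 together, so the level does not check the frame shifts. Ctnnb1, which encodes β-catenin, was 207 to 223 FPKM in β-catenin ΔGSK, 195 to 207 in KMF, 140 to 148 in FAK KO, 133 to 139 in FAK-R454 and 127 to 130 in FAK-WT samples. KMF cells, with no construct, thus came close to the β-catenin ΔGSK range. Between 25390558 and 35289859 fragments per sample fell on genes. Of the epithelial and mesothelial markers, Krt8, Krt18 and Krt19 were at 160 FPKM or more in every sample and Krt7 at 0.420 FPKM or less. Krt8 was higher in FAK-WT (0.84) and lower in β-catenin ΔGSK (-0.81) than in FAK KO cells. Wt1 was higher in β-catenin ΔGSK (1.21) and FAK-R454 cells (0.22). Upk3b was higher in KMF (0.98), FAK-WT (0.87), FAK-R454 (2.96) and β-catenin ΔGSK cells (1.12). Krt18 was higher in KMF (0.64) and FAK-WT cells (0.79). Krt19 was higher in FAK-WT (0.37) and β-catenin ΔGSK (0.55) but lower in KMF cells (-0.22). Msln was higher in FAK-WT (0.47) and lower in β-catenin ΔGSK cells (-0.55). Among other cells, the T cell marker Cd3e was at 0 in all of them and Ptprc, of all leukocytes, at 0.00759 FPKM or less. Cd68, a macrophage marker, was 2.55 to 3.62 FPKM in KMF and FAK KO, 6.60, 6.97 and 12.3 in FAK-WT, 4.24 and 4.34 in FAK-R454 and 1.05 to 1.86 in β-catenin ΔGSK samples. Of the other immune markers, Csf1r was at 0.0525 FPKM or less and Lyz2 at 0.109 FPKM or less in every sample. The summed fibroblast markers, mostly Dcn, were 41.8 to 49.8 FPKM in KMF, 30.8 to 45.1 in β-catenin ΔGSK and 90.0 to 145 in samples of the other lines. Within that list Dcn was lower in KMF than in FAK KO cells (-1.57) while Col1a1 and Pdgfra were higher (0.87 and 1.55), and all 3 were lower in β-catenin ΔGSK cells. Col1a1 and Pdgfra were also higher than in FAK KO in FAK-WT (2.70 and 1.72) and FAK-R454 cells (2.86 and 1.53), where Dcn was not called. Col1a2 and Lum, of that list too, were at 0.0159 and 0.0370 FPKM or less in every sample. Of the endothelial markers, Tek was 28.7 to 28.8 FPKM in KMF, 16.2 to 18.1 in FAK KO, FAK-WT and FAK-R454, and 6.29 to 7.25 in β-catenin ΔGSK samples. Pecam1 was lower in β-catenin ΔGSK than in FAK KO cells (-1.58), and Cdh5 and Kdr were at 0.0432 FPKM or less. The part of these markers in the results was not tested. FAK-WT replicate 3 stood apart from its line. It was the lowest of the 3 FAK-WT samples for 32 of the 48 repair genes and for 22 of 24 proliferation genes, compared with 49.2% of 12256 genes, and counts and calls of repair genes that changed without it are given both ways. In such bulk samples, fewer cells expressing a gene and less RNA per cell cannot be told apart.

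Cells repair each kind of DNA lesion with a dedicated set of proteins. Homologous recombination copies an intact sister sequence to mend a double-strand break, after nucleases have resected the broken ends, and Brca1, Brca2 and Bard1 act in it. The Fanconi anemia proteins unhook crosslinks between the DNA strands, which are among the lesions that platinum drugs make. Nucleotide excision repair cuts out bulky adducts on 1 strand. Parp1 senses single-strand breaks, Atm and Atr are kinases that signal damage, and translesion polymerases copy past lesions that remain. Defects of homologous recombination are frequent in ovarian cancer and are known to make its cells sensitive to platinum and to PARP inhibitors. The study asked how FAK and β-catenin signalling relate to tumorsphere growth and cisplatin resistance in these cells.

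The repair genes differed in level by more than 2 orders of magnitude. Parp1 was the most abundant with a mean of 130 FPKM over the 14 samples, followed by Xrcc1 with 23.5, Ercc3 with 18.2, Ercc1 with 16.1 and Msh6 with 15.1 FPKM. The lowest were Rad51b with 0.463, Palb2 with 0.784, Fancb with 0.834 and Brca2 with 0.925 FPKM, which rest on as few as 14 fragments in a sample for Rad51b and 38 for Fancb. By pathway, the median was 23.5 FPKM for the 3 genes of single-strand break repair and 12.2 FPKM for 7 genes of nucleotide excision repair. It was 4.71 FPKM for 7 genes of end resection and the RecQ helicases, 2.40 for 4 damage signalling kinases, 2.23 for 12 Fanconi anemia and crosslink genes, and 1.67 for 11 genes of homologous recombination. FPKM are per length of gene, so these levels can be compared roughly. Reads from overlapping neighbours, taken up below, could add to some of them.

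**Figure D1:**
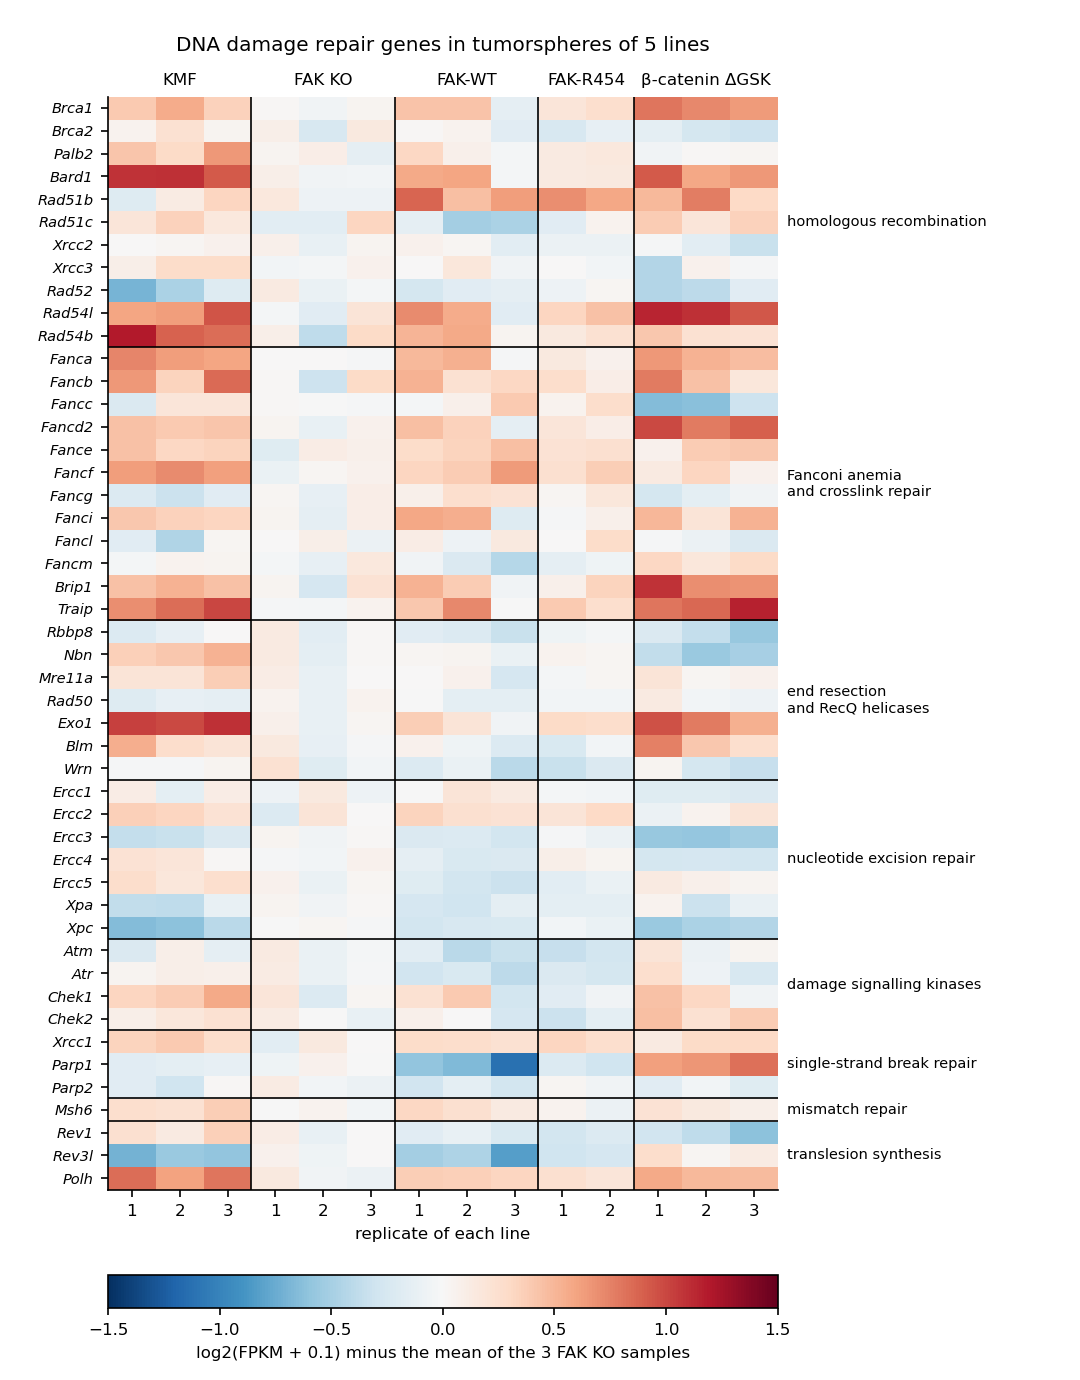
Level of each of the 48 repair genes (rows, grouped by pathway) in each of the 14 samples (columns, numbered by replicate within each line). Color is log2(FPKM + 0.1) minus the mean of the 3 FAK KO samples, red for higher and blue for lower. Bard1, Exo1, Rad54l and Traip are red in KMF and in β-catenin ΔGSK cells, Parp1 is deepest red in β-catenin ΔGSK columns and darkest blue in FAK-WT replicate 3, and the first 2 FAK-WT samples both exceed the third in 6 of the 12 Fanconi anemia rows.

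Across all 5 lines, limma's F test called 34 of 46 repair genes tested (adjusted p under 0.05), against 83.9% of the 12256 genes tested, so a difference between some of these lines was no more frequent among repair genes than among genes at large. Palb2 and Rad51b did not pass the filter of a mean above 1 FPKM in at least 1 line. Of the 46 genes, 21 had their highest mean in KMF, 14 in β-catenin ΔGSK, 7 in FAK KO, 2 in FAK-WT and 2 in FAK-R454 cells. FAK KO cells held the lowest mean of 16 genes. Parp1 had the widest range of line means, 2.78-fold between β-catenin ΔGSK and FAK-WT cells, followed by Rad54l with 2.17-fold, Exo1 with 2.16-fold and Bard1 with 2.14-fold.

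Promoter windows of 300 bases, from 250 before to 50 after the start of the gene, were found in RefSeq (GRCm38.p6) for 37 of the 48 genes, as 40 windows. Letters known for cell cycle promoters were searched on both strands. These were E2F letters (TTTCGCGC, TTTGGCGC, TTCCCGCC or TTCGCGCC, which can overlap one another), the NF-Y letters CCAAT, and the CHR letters TTTGAA or TTCGAA. E2F letters were in 7 of the 40 windows (17.5%) against 3.32% of all 32851 windows of that length, CCAAT was in 25 (62.5%) against 37.4%, and CHR letters were in 5 (12.5%) against 19.2%. Among 11 windows of Fanconi anemia and crosslink genes, 8 held CCAAT and 3 held E2F letters. CCAAT was also in 4 of 5 windows of nucleotide excision repair genes and in 2 of 2 of end resection and RecQ genes. E2F letters were in 0 of either. Fancc and Ercc4, which were lower in β-catenin ΔGSK than in FAK KO cells, hold CCAAT too. The windows below belong to 4 genes that were higher in β-catenin ΔGSK than in FAK KO cells, beside that of Parp1, which was higher too but holds none of these letters. Capitals mark every match on either strand, and each window is written in the direction of its gene. A match is a description of the letters only.

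Brca1, chr11:101551906-101552205, minus strand: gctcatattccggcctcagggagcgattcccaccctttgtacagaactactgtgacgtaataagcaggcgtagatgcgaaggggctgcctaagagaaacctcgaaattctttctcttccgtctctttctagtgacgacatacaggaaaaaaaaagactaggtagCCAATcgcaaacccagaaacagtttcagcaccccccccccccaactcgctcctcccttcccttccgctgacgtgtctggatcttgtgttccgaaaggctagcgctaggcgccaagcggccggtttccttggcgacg

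Rad54l, chr4:116123640-116123939, minus strand: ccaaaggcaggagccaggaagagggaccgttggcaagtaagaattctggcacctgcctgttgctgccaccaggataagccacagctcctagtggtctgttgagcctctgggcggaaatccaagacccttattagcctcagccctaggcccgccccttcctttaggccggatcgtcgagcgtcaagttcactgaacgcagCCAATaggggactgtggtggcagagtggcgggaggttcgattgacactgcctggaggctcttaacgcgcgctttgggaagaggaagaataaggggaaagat

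Brip1, chr11:86201144-86201443, minus strand: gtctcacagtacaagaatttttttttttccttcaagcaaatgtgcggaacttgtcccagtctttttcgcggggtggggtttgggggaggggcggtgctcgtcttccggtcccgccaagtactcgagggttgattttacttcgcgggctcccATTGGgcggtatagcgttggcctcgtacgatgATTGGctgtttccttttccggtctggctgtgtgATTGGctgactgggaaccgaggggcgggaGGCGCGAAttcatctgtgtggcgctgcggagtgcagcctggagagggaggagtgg

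Traip, chr9:107950713-107951012, plus strand: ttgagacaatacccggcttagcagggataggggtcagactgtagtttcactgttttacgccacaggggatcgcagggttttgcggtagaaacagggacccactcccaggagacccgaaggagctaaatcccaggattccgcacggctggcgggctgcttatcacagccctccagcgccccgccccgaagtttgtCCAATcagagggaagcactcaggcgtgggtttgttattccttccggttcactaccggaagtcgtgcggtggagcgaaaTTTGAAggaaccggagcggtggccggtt

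Parp1, chr1:180568641-180568940, plus strand: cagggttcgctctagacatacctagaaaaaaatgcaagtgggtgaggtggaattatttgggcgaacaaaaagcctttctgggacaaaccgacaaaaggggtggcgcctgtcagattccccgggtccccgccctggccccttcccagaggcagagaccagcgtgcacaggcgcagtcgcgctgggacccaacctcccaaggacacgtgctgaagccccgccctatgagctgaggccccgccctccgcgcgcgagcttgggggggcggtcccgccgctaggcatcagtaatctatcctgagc

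In these windows Brca1 has 1 CCAAT, 86 bases before the start. Brip1 has CCAAT 3 times on the opposite strand and 1 E2F match that begins 5 bases before the start. Traip has CCAAT 56 bases before the start and TTTGAA after it. Rad54l is listed with a pair of starts 1 base apart, and the first window is shown.

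Each pair of lines was compared with limma on log2(FPKM + 0.1), over genes with a mean above 1 FPKM in at least 1 of them, and a gene was called at an adjusted p under 0.05 whatever its fold. KMF against FAK KO cells showed the most repair genes called higher. Of 46 tested, 20 were higher in KMF cells (43.5%), against 23.1% of all 11893 genes tested, and 5 were lower (10.9%), against 28.7%. Of the higher genes, Brip1, Exo1 and Fancb averaged 0.902, 0.983 and 0.639 FPKM in FAK KO cells and passed the filter through KMF alone. The median log2 fold change of the repair genes was 0.23, whereas that of all genes tested was -0.05. Between β-catenin ΔGSK and FAK KO cells, 13 of 44 repair genes were higher (29.5%), against 23.7% of all genes, and 8 were lower (18.2%), against 34.4%, with a median of 0.11 against -0.09 for all genes. The share called higher in this comparison is thus near that of all genes. Brip1 and Exo1 passed the filter there through β-catenin ΔGSK cells alone. Scaling by the median of ratios moved the median of all genes by 0.10. With it 17 of 44 repair genes were higher and 5 lower, against 3654 higher and 3161 lower of all 11915 genes. In these 2 comparisons 24 and 15 repair genes lay wholly above the FAK KO samples and 8 and 9 wholly below, while 60.8% and 64.2% of all genes did not overlap in either direction.

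FAK-WT cells showed few repair genes that were called against FAK KO cells, with 5 of 44 higher (11.4%), against 15.6% of all genes, and 7 lower (15.9%), against 25.2%. The median log2 fold change was 0.02 against -0.08 for all genes. Without FAK-WT replicate 3 the counts were 11 higher and 5 lower, against 16.7% and 22.1% of all genes, 9 genes being called in both fits. With median-of-ratios scaling they were 5 and 3, against 2372 higher and 2078 lower of all 11841 genes. Over all left-out samples the counts of repair genes ran from 2 to 11 higher and from 2 to 8 lower. FAK-R454 cells had 0 repair genes higher, against 9.78% of all genes, and 1 lower, against 9.89%, with a median of -0.02 against -0.03. Unadjusted p-values were under 0.05 for 3 higher and 4 lower genes in that comparison, and limma-voom on recovered fragments called 1 higher and 3 lower. Leaving out 1 sample gave 0 to 3 in each direction, and without FAK KO replicate 2 Fance, Ercc2 and Xrcc1 were higher and Rev1, Rev3l and Parp1 lower. Between FAK-WT and FAK-R454 cells 0 repair genes were called in either direction, against 3.38% of all genes higher and 4.44% lower, with 1 and 7 at an unadjusted p under 0.05, and limma-voom called 0 too. Without FAK-WT replicate 3, which leaves 2 samples against 2, 4 of 44 were higher and 4 lower, against 12.8% and 15.3% of all genes in that fit. The higher ones were Fanca, Fanci, Msh6 and Rad54b, and the lower ones Ercc3, Ercc4, Parp1 and Xpc. FAK-WT cells compared with parental KMF cells had 2 of 46 repair genes higher, against 18.2% of all genes, and 12 lower (26.1%), against 23.5%, with a median of -0.20 against -0.04. Without FAK-WT replicate 3, 13 of these 14 calls held, Mre11a was lost and Fancf was gained as lower (-0.30, adjusted p = 0.0235).

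**Figure D2:**
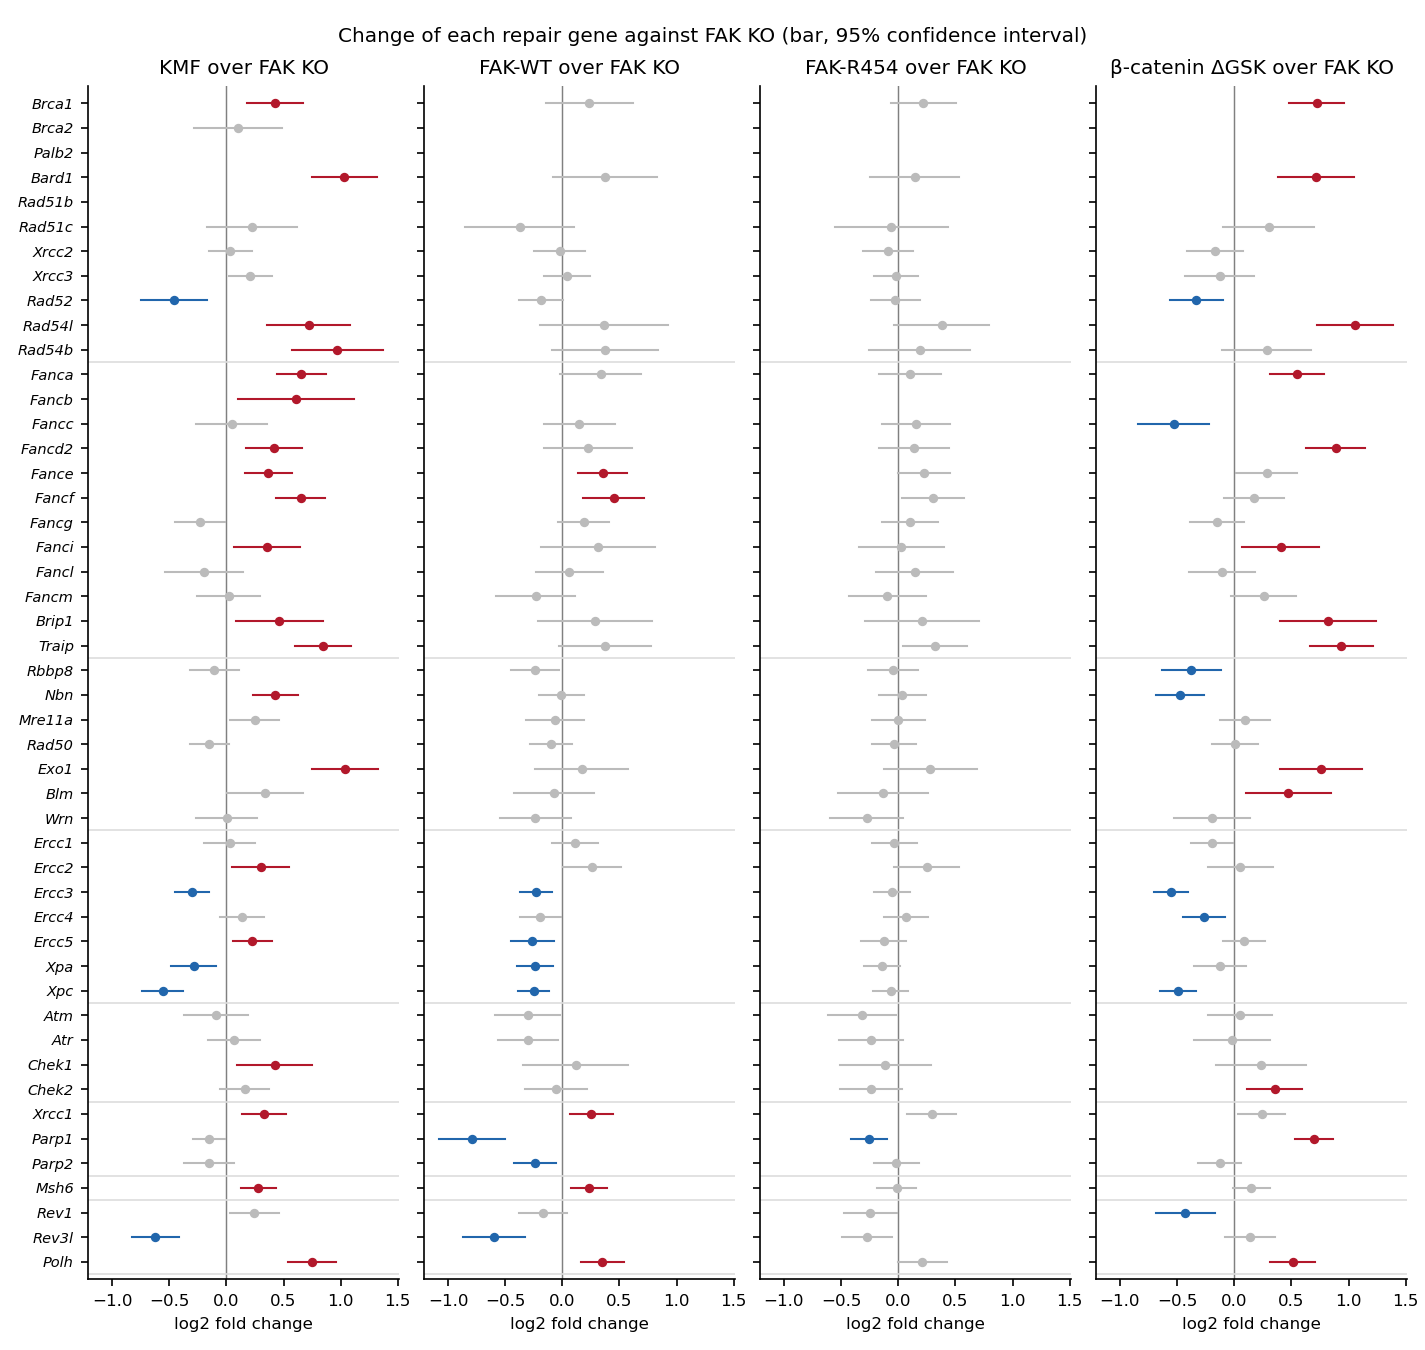
Log2 fold change of each repair gene against FAK KO cells (points, on the log2(FPKM + 0.1) scale) with its 95% confidence interval (bars), for β-catenin ΔGSK, FAK-R454, FAK-WT and KMF cells. Red and blue mark genes called higher and lower by limma, grey marks genes tested and not called, and a gene without a point was below the filter. Of the 20 red genes of KMF, 8 are Fanconi anemia and 4 homologous recombination genes, and Parp1 is the single colored gene of FAK-R454.

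Homologous recombination genes, where called, lay above FAK KO levels in KMF and β-catenin ΔGSK cells, apart from Rad52. In KMF cells 4 of 9 tested were higher (44.4%, against 23.1% of all genes) and 1 lower (11.1%, against 28.7%). In β-catenin ΔGSK cells 3 of 8 were higher (37.5%, against 23.7%) and 1 lower (12.5%, against 34.4%), and 0 of 8 were called in FAK-WT or in FAK-R454 cells, with 0 also at an unadjusted p under 0.05 and by limma-voom. Without FAK-WT replicate 3, however, 3 of 8 were higher in FAK-WT cells, namely Brca1, Bard1 (0.58, adjusted p = 0.0224) and Rad54l (0.63, adjusted p = 0.0253). Brca1 (ENSMUSG00000017146, chr11:101488764-101551955, minus strand), a ubiquitin ligase subunit that promotes resection of broken ends, was 1.99, 1.88 and 2.02 FPKM in FAK KO samples. It was 2.61, 2.92 and 2.51 FPKM in KMF and 3.51, 3.29 and 3.10 FPKM in β-catenin ΔGSK samples. All 6 of these values lie above the 3 of FAK KO, with log2 fold changes of 0.43 in KMF (SE 0.11, adjusted p = 0.0102) and 0.72 in β-catenin ΔGSK cells (SE 0.11, adjusted p = 4.89e-04). In FAK-WT cells Brca1 was 2.66, 2.67 and 1.77 FPKM, and in FAK-R454 cells 2.25 and 2.36 FPKM. Replicates 1 and 2 of FAK-WT were thus near KMF, and replicate 3 was below every FAK KO sample. The change of Brca1 was not called in FAK-WT cells, at 0.24 with an interval of -0.15 to 0.62, and was 0.42 without replicate 3 (adjusted p = 0.0244). Its change in FAK-R454 cells was 0.22 (interval -0.06 to 0.50).

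Bard1 (ENSMUSG00000026196, chr1:71027498-71103146, minus strand), the partner of Brca1 in the ligase, was 1.17, 1.05 and 1.05 FPKM in FAK KO and 2.41, 2.44 and 2.15 FPKM in KMF samples. KMF cells therefore held 2.04 times the FAK KO level in the fit, a log2 fold change of 1.03 (SE 0.12, adjusted p = 2.28e-04), and the samples did not overlap. β-catenin ΔGSK samples were at 2.14, 1.68 and 1.77 FPKM (0.72, adjusted p = 0.00288). In FAK-WT samples Bard1 was 1.66, 1.70 and 1.06 FPKM, so that replicate 3 lay within the FAK KO range, and it was lower than in KMF cells by 0.66 on the log2 scale (SE 0.18, adjusted p = 0.0238), and by 0.45 without replicate 3 (-0.45, adjusted p = 0.0161), a call that ended with each chromosome centred (-0.33, adjusted p = 0.251). Rad54l (ENSMUSG00000028702, chr4:116094264-116123690, minus strand), a motor protein that acts on DNA during recombination, was 1.07, 0.956 and 1.27 FPKM in FAK KO and 2.52, 2.45 and 2.18 FPKM in β-catenin ΔGSK samples. This was a log2 fold change of 1.06 (SE 0.15, adjusted p = 3.27e-04). KMF samples were at 1.69, 1.73 and 2.19 FPKM (0.72, adjusted p = 0.00582). Rad54b, its paralog, was 2.55, 1.804 and 2.94 FPKM in FAK KO and 5.56, 4.48 and 4.35 FPKM in KMF samples. Its log2 fold change there was 0.97 (SE 0.18, adjusted p = 0.00208). In β-catenin ΔGSK samples it was 3.18, 2.81 and 2.79 FPKM and was not called, although it was with each chromosome centred.

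Rad52, a mediator of single-strand annealing, went the other way. It was 8.80, 7.49 and 7.86 FPKM in FAK KO, 4.93, 5.75 and 6.99 FPKM in KMF and 5.90, 6.11 and 7.14 FPKM in β-catenin ΔGSK samples, all lower than in FAK KO (-0.46, adjusted p = 0.0160, and -0.33, adjusted p = 0.0212). Both calls ended once each chromosome was centred (-0.15, adjusted p = 0.354, and -0.13, adjusted p = 0.301), and the second also with median-of-ratios scaling (-0.23, adjusted p = 0.0809). Rad51c, another gene of homologous recombination, was lower in FAK-WT than in KMF cells (-0.60, SE 0.15, adjusted p = 0.0180). Its values were 1.03, 0.775 and 0.791 FPKM against 1.31, 1.47 and 1.29, and it passed the filter there through KMF alone. Brca2, a mediator of homologous recombination, lay between 0.757 and 1.14 FPKM in all 14 samples. Its change in KMF over FAK KO cells was 0.10 (interval -0.28 to 0.49), and it was below the filter in the other comparisons with FAK KO. Xrcc2 and Xrcc3, of the same pathway, were not called in any of the 6 comparisons. With each chromosome centred, however, Xrcc3 was called higher in KMF than in FAK KO cells (0.33, adjusted p = 0.0125). Median-of-ratios scaling called it in that comparison too.

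**Figure D3:**
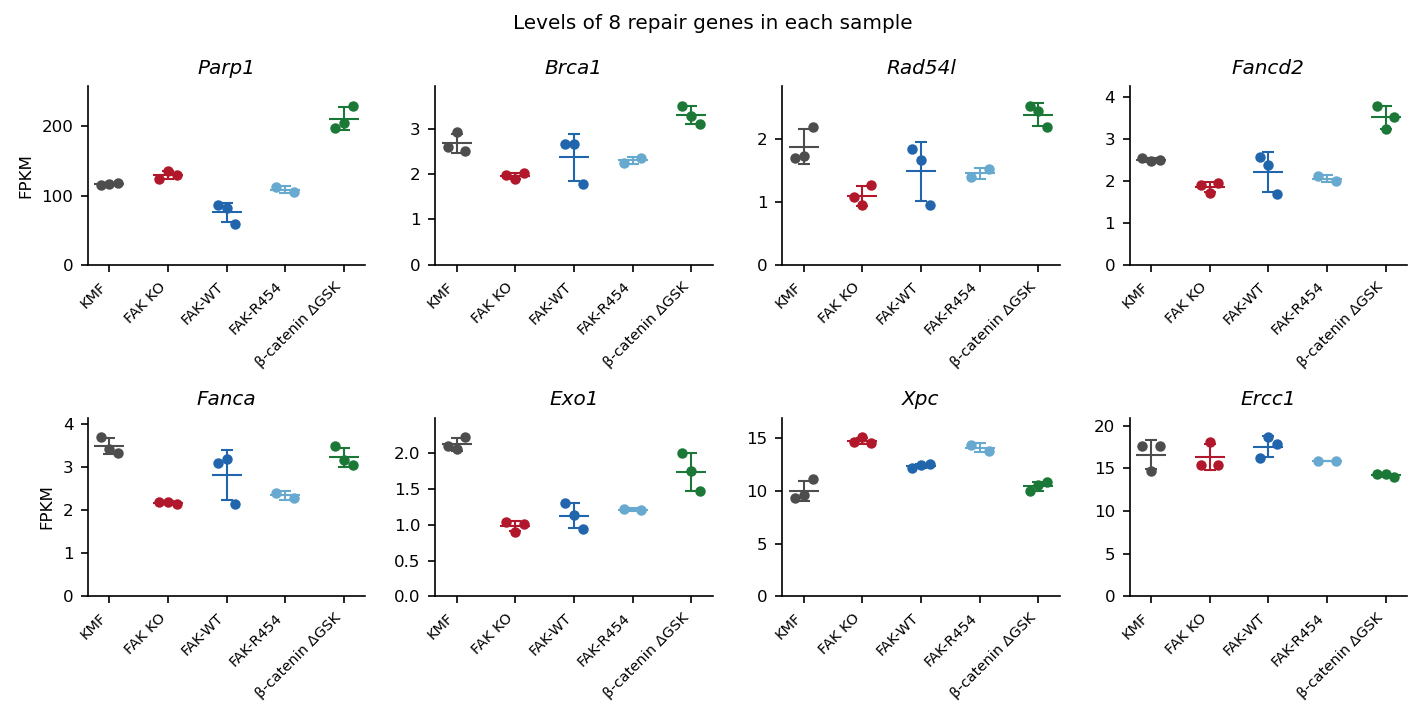
FPKM of 8 repair genes in each sample (points) of the 5 lines, with the mean (horizontal line) and SD (bars, n = 3, or 2 in FAK-R454), each on its own axis from 0. Parp1 runs from 59.6 FPKM in FAK-WT replicate 3 to 230 FPKM in a β-catenin ΔGSK sample. Brca1, Rad54l, Fancd2 and Fanca show 1 FAK-WT sample apart from the other 2, and Xpc is highest in FAK KO and FAK-R454 cells. Ercc1 has the narrowest range of line means of the 8, 1.24-fold.

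The Fanconi anemia and crosslink genes had the largest share of higher calls in KMF cells among the groups with more than 1 gene, 8 of 12 (66.7%, against 23.1% of all genes) and 0 lower (1 at an unadjusted p under 0.05, 0 by limma-voom). Of the 8, Brip1 and Fancb passed the filter through KMF alone. The 8 became 5 without the filter and without KMF replicate 1 or 3 or FAK KO replicate 1 or 2. In β-catenin ΔGSK cells 5 of 11 were higher (45.5%, against 23.7%) and 1 lower (9.09%, against 34.4%). Of the 5, Brip1 passed the filter through that line alone. In FAK-WT cells 2 of 11 were higher (18.2%, near the 15.6% of all genes) and 0 lower, also at an unadjusted p under 0.05 and by limma-voom. Without FAK-WT replicate 3 the 2 became 6, with Traip, Fanca, Fancd2 and Fanci called higher as well. In FAK-R454 cells 0 of 11 were called, with 2 higher and 0 lower at an unadjusted p under 0.05 and 0 by limma-voom. Fancd2 (ENSMUSG00000034023, chr6:113531682-113597017, plus strand), the subunit that is ubiquitinated at a crosslink, was 1.91, 1.71 and 1.95 FPKM in FAK KO, 2.56, 2.47 and 2.498 FPKM in KMF and 3.80, 3.25 and 3.53 FPKM in β-catenin ΔGSK samples. The 3 lines did not overlap, and the log2 fold change over FAK KO was 0.42 in KMF (SE 0.11, adjusted p = 0.0110) and 0.89 in β-catenin ΔGSK cells (SE 0.11, adjusted p = 2.18e-04). Fanci, its partner, was higher in both lines as well (0.36 and 0.41), but neither call held without FAK KO replicate 2 (0.29, adjusted p = 0.0867, and 0.34, adjusted p = 0.110), and the F test over 5 lines did not call it (adjusted p = 0.146). Traip, a ubiquitin ligase of the replication fork, was 2.04, 2.02 and 2.15 FPKM in FAK KO, 3.42, 3.77 and 4.24 FPKM in KMF and 3.68, 3.84 and 4.71 FPKM in β-catenin ΔGSK samples. Its lowest value in the latter 2 lines was thus above every FAK KO value (0.85, SE 0.11, adjusted p = 3.25e-04, and 0.94, SE 0.12, adjusted p = 2.19e-04). Brip1, a helicase bound to Brca1, was 0.920, 0.736 and 1.05 FPKM in FAK KO and 2.01, 1.52 and 1.49 FPKM in β-catenin ΔGSK samples (0.82, SE 0.18, adjusted p = 0.00493).

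Members of the Fanconi core complex, which ubiquitinates Fancd2, moved differently from each other. Fanca was 2.19, 2.19 and 2.14 FPKM in FAK KO, 3.69, 3.42 and 3.34 FPKM in KMF and 3.48, 3.16 and 3.05 FPKM in β-catenin ΔGSK samples, called higher in both lines (0.65 and 0.55). FAK-WT samples 1 and 2 were at 3.09 and 3.19 FPKM and sample 3 at 2.14 FPKM, near the lowest FAK KO value. Fancf was higher in KMF (0.65) and in FAK-WT cells (0.45, SE 0.12, adjusted p = 0.0176), from 2.30, 2.52 and 2.58 FPKM in FAK KO to 3.11, 3.24 and 3.88 FPKM in FAK-WT samples, of which replicate 3 was here the highest. Fance was higher in FAK-WT cells too (0.35, SE 0.09, adjusted p = 0.0183) and in KMF cells (0.37), from 10.7, 13.2 and 12.9 FPKM in FAK KO to 14.8, 15.4 and 16.8 FPKM in FAK-WT samples. Fancc fell in β-catenin ΔGSK cells, to 1.26, 1.28 and 1.61 FPKM from 2.05, 2.02 and 2.01 FPKM in FAK KO (-0.53, SE 0.14, adjusted p = 0.00991). Fancg was higher in FAK-WT than in KMF cells, with 4.46, 5.05 and 4.93 against 3.66, 3.36 and 3.73 FPKM (0.42, SE 0.08, adjusted p = 0.00606). Fancl and Fancm were not called in any of the 6 comparisons, although the F test over 5 lines called Fancm (adjusted p = 0.0185). Median-of-ratios scaling called Fancm in β-catenin ΔGSK against FAK KO cells.

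Among the nucleases and helicases that resect broken ends, Exo1 changed most. Exo1 (ENSMUSG00000039748, chr1:175880778-175911396, plus strand), a 5′ to 3′ exonuclease, was 1.04, 0.898 and 1.01 FPKM in FAK KO and 2.09, 2.05 and 2.22 FPKM in KMF samples. The log2 fold change was 1.04 (SE 0.13, adjusted p = 2.59e-04), about that of Bard1. β-catenin ΔGSK samples were at 2.00, 1.75 and 1.47 FPKM (0.76, SE 0.16, adjusted p = 0.00342) and FAK-WT samples at 1.30, 1.14 and 0.942 FPKM, below KMF by 0.87 on the log2 scale (-0.87, SE 0.14, adjusted p = 0.00237). Nbn, of the complex with Mre11a and Rad50 that senses breaks, was 15.7, 13.0 and 14.5 FPKM in FAK KO samples. It was higher in KMF samples, at 18.4, 19.0 and 20.7 FPKM (0.43, adjusted p = 0.00340), and lower in β-catenin ΔGSK samples, at 11.1, 9.73 and 10.1 FPKM (-0.48, SE 0.09, adjusted p = 0.00219). Neither of its partners was called against FAK KO in these 2 lines. Without FAK KO replicate 2, however, Rad50 was called lower in KMF cells (-0.20, adjusted p = 0.0416). Median-of-ratios scaling called Mre11a in KMF cells. Rbbp8, the resection factor also known as CtIP, was lower in β-catenin ΔGSK cells (-0.38), and Blm, a RecQ helicase, was higher (0.47), but not called without FAK KO replicate 2 (0.41, adjusted p = 0.0888).

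Parp1 (ENSMUSG00000026496, chr1:180568955-180601253, plus strand), the main poly(ADP-ribose) polymerase, rose and fell between the KT13 lines. FAK KO samples held 124, 136 and 130 FPKM. The level was 86.0, 81.9 and 59.6 FPKM in FAK-WT, 112 and 105 FPKM in FAK-R454 and 198, 205 and 230 FPKM in β-catenin ΔGSK samples. These 4 lines did not overlap at any point, with β-catenin ΔGSK highest, then FAK KO, FAK-R454 and FAK-WT. KMF samples, at 115, 117 and 119 FPKM, lay between FAK KO and FAK-R454. Against FAK KO, Parp1 was called lower in FAK-WT cells (-0.79, SE 0.13, adjusted p = 0.00243) and higher in β-catenin ΔGSK cells (0.70, SE 0.07, adjusted p = 6.84e-05). Without FAK-WT replicate 3 its change in FAK-WT cells was -0.63 (adjusted p = 3.85e-04). In FAK-R454 cells it was -0.26 (SE 0.07, adjusted p = 0.0331), a call that was lost under 6 of the alternative settings, with adjusted p from 0.0634 to 0.157, and without either FAK-R454 sample or FAK KO replicate 3. The direct difference of FAK-WT from FAK-R454 cells was -0.53 (interval -0.92 to -0.15, adjusted p = 0.0972), and without replicate 3 it was -0.37 (adjusted p = 9.49e-04). Parp1 was also lower in FAK-WT than in KMF cells (-0.64, SE 0.13, adjusted p = 0.00708, or -0.48 without replicate 3), and its difference between KMF and FAK KO cells, -0.15, was not called (interval -0.29 to -0.01).

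The other genes of single-strand break repair moved less. Parp2, a second polymerase of this family, was 10.2, 11.3 and 10.3 FPKM in FAK-WT samples against 13.6, 12.2 and 11.8 FPKM in FAK KO (-0.24, SE 0.08, adjusted p = 0.0431), and lost its call when any 1 sample was left out and under 6 alternative settings. Xrcc1, the scaffold of this pathway, rose over FAK KO in FAK-WT cells, with 24.3, 24.2 and 23.6 against 18.05, 22.3 and 20.2 FPKM (0.25, SE 0.08, adjusted p = 0.0380, or 0.0510 without replicate 3), and in KMF cells (0.33). Msh6, which recognises base mismatches, was higher in both lines too (0.23, SE 0.07, adjusted p = 0.0299, and 0.28).

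Nucleotide excision repair genes were called lower more often than higher in 3 comparisons with FAK KO. There were 2 higher and 3 lower of 7 in KMF, 0 and 3 in β-catenin ΔGSK, and 0 and 4 in FAK-WT cells, while 0 were called in FAK-R454 cells, with 0 also at an unadjusted p under 0.05. Among all genes tested 28.7% were lower in KMF, 34.4% in β-catenin ΔGSK and 25.2% in FAK-WT cells, more than were higher, an order that median-of-ratios scaling turned in all 3 (3155 higher and 2969 lower in KMF cells). The lower calls became 1, 1 and 0 once each chromosome was centred. Ercc5 was then called higher in β-catenin ΔGSK cells (0.24, adjusted p = 0.0220), so that lower calls outnumbered higher ones in KMF cells alone. The 4 lower calls of FAK-WT became 1 with median-of-ratios scaling or limma-voom. They became 2 without FAK KO replicate 1, 1 without FAK-WT replicate 1 and 0 without FAK KO replicate 3 or FAK-WT replicate 2. Xpc (ENSMUSG00000030094, chr6:91489305-91515884, minus strand), the sensor of bulky lesions across the genome, was 14.7, 15.1 and 14.6 FPKM in FAK KO samples, close to the 14.4 and 13.8 FPKM of FAK-R454. It was 9.35, 9.63 and 11.1 FPKM in KMF, 12.2, 12.5 and 12.6 FPKM in FAK-WT and 10.01, 10.6 and 10.8 FPKM in β-catenin ΔGSK samples. Every sample of those 3 lines was below every FAK KO sample, with log2 fold changes of -0.56 (SE 0.08, adjusted p = 6.00e-04), -0.25 (SE 0.06, adjusted p = 0.0129) and -0.49 (SE 0.07, adjusted p = 3.52e-04). Ercc3, a helicase of the general factor TFIIH, was 21.98, 20.5 and 21.5 FPKM in FAK KO and 14.4, 14.2 and 14.8 FPKM in β-catenin ΔGSK samples (-0.55, SE 0.07, adjusted p = 1.28e-04), and was lower in KMF (-0.30, SE 0.07, adjusted p = 0.00572) and FAK-WT cells (-0.23). Xpa, a scaffold of the excision complex, was lower in KMF (-0.29, SE 0.09, adjusted p = 0.0217) and FAK-WT cells (-0.24), and Ercc4, a nuclease subunit, in β-catenin ΔGSK cells (-0.26). Ercc5, the nuclease that cuts 3′ of the lesion, fell against FAK KO in FAK-WT cells (-0.26, SE 0.08, adjusted p = 0.0326, or 0.0673 without replicate 3) and was called higher in KMF cells (0.23), which ended without FAK KO replicate 2 (0.18, adjusted p = 0.0723) and with each chromosome centred (0.03). Ercc1, the partner of Ercc4 and much studied in platinum response, was 15.4, 18.02 and 15.4 FPKM in FAK KO and between 13.96 and 18.6 FPKM in the other 11 samples. Its changes against FAK KO were 0.03 in KMF, -0.03 in FAK-R454, 0.11 in FAK-WT cells and -0.19 in β-catenin ΔGSK cells (interval -0.38 to -0.01, adjusted p = 0.0680), and none was called.

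The apical signalling kinases Atm and Atr each ranged 1.30-fold between line means, and the F test over 5 lines called both (adjusted p = 0.0348 and 0.0419). Atm was 2.70, 2.28 and 2.41 FPKM in FAK KO samples, 2.19, 1.82 and 1.92 FPKM in FAK-WT and 1.90 and 2.01 FPKM in FAK-R454 samples, with log2 fold changes of -0.30 (interval -0.59 to -0.02, adjusted p = 0.0824) and -0.31 (interval -0.61 to -0.02, adjusted p = 0.120) that were not called. Atr was 2.18, 2.27 and 2.01 FPKM in FAK-WT samples against 2.92, 2.49 and 2.65 FPKM in FAK KO (-0.30, adjusted p = 0.0627). Without FAK KO replicate 2 Atr was called lower there (-0.35, adjusted p = 0.0493). Its FAK-WT values lay below all 3 values of KMF, 2.75, 2.86 and 2.83 FPKM, and there it was called lower (-0.37, SE 0.09, adjusted p = 0.0136), though not with each chromosome centred (-0.21, adjusted p = 0.117). Chek1, the effector of Atr, was higher in KMF than in FAK KO cells, with 1.85, 1.92 and 2.20 against 1.66, 1.25 and 1.49 FPKM (0.42, SE 0.14, adjusted p = 0.0354). That call ended without FAK KO replicate 2 (0.32, adjusted p = 0.0856) and with each chromosome centred (0.35, adjusted p = 0.0721), and the F test over 5 lines did not call Chek1 (adjusted p = 0.115). Its other changes against FAK KO were 0.23 in β-catenin ΔGSK, -0.11 in FAK-R454 and 0.12 in FAK-WT cells, none of them called. Chek2, the effector of Atm, was higher in β-catenin ΔGSK cells (0.35).

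The 3 translesion genes each followed their own course. Polh, the polymerase that copies past ultraviolet and some platinum lesions, was 7.65, 6.67 and 6.52 FPKM in FAK KO samples and higher in 3 lines. KMF samples were at 12.4, 10.6 and 12.1 FPKM (0.75, SE 0.09, adjusted p = 2.73e-04), FAK-WT samples at 8.99, 8.89 and 8.69 FPKM (0.35, SE 0.08, adjusted p = 0.0116) and β-catenin ΔGSK samples at 10.3, 9.75 and 9.68 FPKM (0.51, SE 0.09, adjusted p = 0.00110). FAK-R454 samples, at 8.23 and 7.85 FPKM, were above every FAK KO sample without being called (0.21). Rev3l, the catalytic subunit of polymerase zeta, was 4.56, 4.15 and 4.37 FPKM in FAK KO, 2.62, 2.92 and 2.86 FPKM in KMF and 3.04, 3.14 and 2.41 FPKM in FAK-WT samples. It was thus lower in both lines (-0.62, SE 0.09, adjusted p = 6.83e-04, and -0.60, SE 0.12, adjusted p = 0.00587). In β-catenin ΔGSK cells, at 5.27, 4.44 and 4.73 FPKM, Rev3l was not called (0.14). With each chromosome centred it was called higher there (0.28, adjusted p = 0.0193). Rev1, a scaffold for these polymerases, was lower in β-catenin ΔGSK cells, at 3.93, 3.69 and 3.13 against 5.22, 4.46 and 4.84 FPKM (-0.43, SE 0.11, adjusted p = 0.0112).

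**Figure D4:**
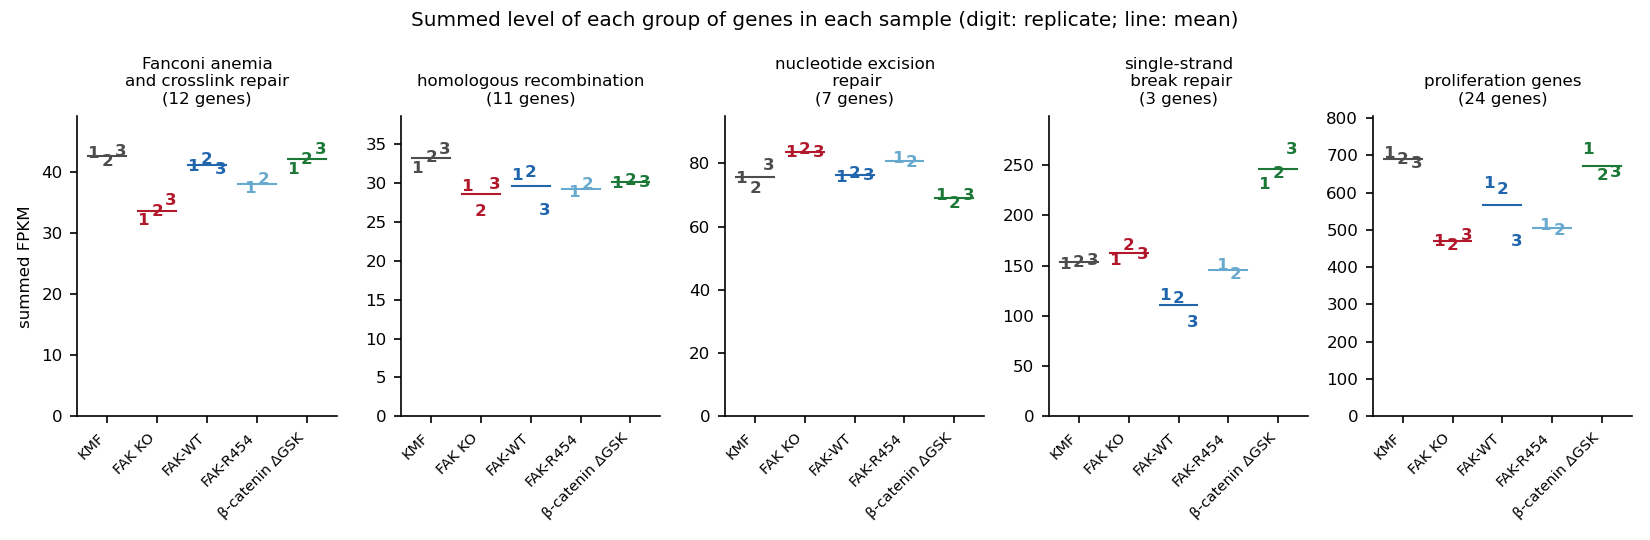
Summed FPKM of 4 groups of repair genes and of 24 proliferation genes in each sample (digit, the replicate number) with the mean of each line (horizontal line), on axes from 0. Fanconi anemia sums are lowest in FAK KO, nucleotide excision sums are highest there, single-strand break sums follow Parp1, and FAK-WT replicate 3 sits apart from replicates 1 and 2 in proliferation and homologous recombination.

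Other gene lists were counted in the same comparisons. Of 24 proliferation genes, such as Mcm5 of the replicative helicase and Ccna2, which encodes cyclin A2, 21 were higher in KMF than in FAK KO cells (87.5%, against 23.1% of all genes) and 18 in β-catenin ΔGSK cells (75.0%, against 23.7%), with 0 lower in both. In FAK-WT cells 9 were higher (37.5%, against 15.6%), and 18 without replicate 3 (where 16.7% of all genes were higher), and in FAK-R454 cells 8 were higher (33.3%, against 9.78%). Their summed level was 459 to 484 FPKM in FAK KO, 678 to 706 in KMF, 646 to 715 in β-catenin ΔGSK and 498 to 512 in FAK-R454 samples. FAK-WT samples were at 608, 623 and, in replicate 3, 469 FPKM, so that replicate 3 was within the range of FAK KO. The part of proliferation in the changes of the repair genes was not tested. Of 12 p53 target genes, 5 were lower than in FAK KO in each of KMF, β-catenin ΔGSK and FAK-WT cells and 7 with FAK-R454, while 1, 2, 1 and 0 were higher. The shares higher were thus 8.33%, 16.7%, 8.33% and 0%, against 23.1%, 23.7%, 15.6% and 9.78% of all genes. The share of 41.7% lower stands against 28.7%, 34.4% and 25.2% of all genes in the former 3 lines, and 58.3% against 9.89% in FAK-R454 cells. Among them Ccng1, a cyclin, had the largest fall in KMF cells (-0.91), and Pmaip1, which promotes apoptosis, in FAK-R454 cells (-0.74).

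Of 57 further repair genes outside the 48, 56 were tested. They gave 20 higher and 12 lower in KMF, 4 and 8 in FAK-WT, 1 and 4 in FAK-R454 and 14 and 12 in β-catenin ΔGSK cells against FAK KO. The share called higher was above that of all genes in KMF cells (35.7% against 23.1%), near it in β-catenin ΔGSK cells (25.0% against 23.7%) and below it in FAK-WT (7.14% against 15.6%) and FAK-R454 cells (1.79% against 9.78%). The share called lower was below that of all genes in each of these lines. It was 21.4% against 28.7% in KMF, 21.4% against 34.4% in β-catenin ΔGSK, 14.3% against 25.2% in FAK-WT and 7.14% against 9.89% in FAK-R454 cells. Timeless, of the fork protection complex, had the largest rise in KMF cells (1.24), with Ube2t, the ubiquitin-conjugating enzyme of the Fanconi pathway (1.16), and Recql4, a RecQ helicase (1.11). In β-catenin ΔGSK cells Eme1, a nuclease subunit, rose most (1.10), while Xrcc4, Prkdc and Nhej1, which act in end joining, were lower (-1.04, -0.60 and -0.54). Polk, a translesion polymerase, was lower in KMF, FAK-WT and FAK-R454 cells (-0.69, -0.66 and -0.47).

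Whole chromosomes also differed between lines, which bears on several of these genes. On chromosome 18, which holds Ercc3 and Rbbp8, the median log2 fold change over FAK KO of all genes tested was -0.38 in both KMF and β-catenin ΔGSK and -0.36 in FAK-WT cells. Once each chromosome was centred, the sign of Ercc3 turned in KMF (0.15) and FAK-WT cells (0.09), its change in β-catenin ΔGSK cells was -0.07, and that of Rbbp8 there turned to 0.11, none of them called. On chromosome 17, which holds Fance, Msh6 and Polh, the median was 0.21 in KMF and 0.16 in FAK-WT cells, and centring removed the calls of Fance and Msh6 but not that of Polh. On chromosome 1, which holds Parp1, Exo1, Bard1, Ercc5 and Rev1, the median was 0.19 in KMF over FAK KO and -0.34 in FAK-WT over KMF cells. With centring, Parp1 was called lower in KMF than in FAK KO cells (-0.35) and its difference between FAK-WT and KMF cells was no longer called (-0.31, adjusted p = 0.152), whereas its calls in FAK-WT (-0.66) and β-catenin ΔGSK cells (0.85) against FAK KO held. On chromosome 6, which holds Xpc, Rad52 and Fancd2, the medians were -0.34 in KMF and -0.17 in each of FAK-WT and β-catenin ΔGSK cells. With centring Xpc was called at smaller changes in KMF (-0.25) and β-catenin ΔGSK (-0.29) but not in FAK-WT cells (-0.05). Of the called repair genes, 16 of 25 in KMF, 17 of 21 in β-catenin ΔGSK and 4 of 12 in FAK-WT cells were called in the same direction after centring, as were 6 of 14 in FAK-WT over KMF cells. Calls lost were Chek1, Ercc2, Ercc3, Ercc5, Fance, Fanci, Msh6, Rad52 and Xpa in KMF and Ercc3, Ercc4, Rad52 and Rbbp8 in β-catenin ΔGSK cells. In FAK-WT cells they were Ercc3, Ercc5, Fance, Msh6, Parp2, Xpa, Xpc and Xrcc1 against FAK KO, and Atr, Bard1, Ercc4, Ercc5, Mre11a, Parp1, Rev1 and Xpc against KMF. Calls gained with centring were Chek2, Parp1, Rbbp8 and Xrcc3 in KMF cells. In β-catenin ΔGSK cells they were Ercc5, Fance, Msh6, Rad54b, Rev3l and Xrcc1, so that 23 repair genes were called there. FAK-WT cells gained Fancg against FAK KO and Rbbp8 against KMF. Gene copy number was not analysed here.

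Some genes share exon bases with a neighbour on the opposite strand, and whether strand was used in counting is not given in the sources used here. In GENCODE vM21, 13 of the 48 genes share exon bases with a gene above 1 FPKM, and 6 of them over more than 10% of their exon length. These are Rev1 with Eif5b (26.6%), Ercc2 with Klc3, Fanci with Polg, Rad54l with Lrrc41 (15.4%), Fancl with Vrk2 and Fanca with Zfp276 (10.5%), as shares of the exon length of each. The error in FPKM depends on the neighbour and was not estimated, and whether neighbour reads were counted was not tested. Zfp276 averaged 6.52 and Klc3 6.35 FPKM, above Fanca and Ercc2 in every sample. Lrrc41 averaged 21.97, Eif5b 15.9 and Polg 15.6 FPKM, each above the repair gene it overlaps in every sample, so reads from the neighbour could be a large part of the values of Rad54l, Rev1 and Fanci.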

How the data were processed

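Poly(A) libraries (NEBNext Ultra) of 14 tumorsphere samples were sequenced, mapped to mm10 and counted per gene by the authors, who deposited FPKM. The submitters' processing notes name CASAVA 1.8, STAR 2.5 and DESeq2, whereas the study's methods name TopHat2, so the mapper is uncertain. Multiplied by gene length, the deposited FPKM were whole fragments (within 0.01) for 100% of the values, with 25390558 to 35289859 on genes per sample. Replicates differed by more than sampling noise.

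FPKM were analysed as log2(FPKM + 0.1), a scale that understates changes of low genes. Each pair of lines was fitted in limma 3.58.1 (R 4.3.3; lmFit, trended eBayes) on its own samples, over genes with a mean above 1 FPKM in at least 1 line, with Benjamini-Hochberg adjustment over all of them. The 5 lines were compared by limma's moderated F test, and intervals are 95% confidence intervals. The fits were tested on simulated data. All comparisons with FAK KO share its 3 samples.

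Full statistics are given for up to 5 called members per direction and comparison, ranked by size of change, and for Brca1, Brca2, Atm, Atr, Chek1, Parp1 and Ercc1. From the lists of other genes up to 3 per direction could be named. The members and lists were chosen with earlier results of these data known. Alternatives were a pseudocount of 1, no or a stricter filter, scaling by the median of ratios, a fit without trend, 1 fit of all samples, replicate number as a block, limma-voom applied to recovered fragments, a fold threshold, centring of each chromosome, and leaving out each sample.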

Additional observations from a re-analysis of the deposited data

How the results depend on the processing

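The counts of repair genes called higher in KMF and in β-catenin ΔGSK than in FAK KO cells stayed within 1.5 times the values given under every alternative except the fold threshold. With a log2 fold change of at least 1 also needed, they became 2 higher and 0 lower in KMF, 1 and 0 in β-catenin ΔGSK, 0 and 0 in FAK-WT and 0 lower in FAK-R454 cells against FAK KO, 0 and 0 in FAK-WT over KMF cells, and 4 among the 5 lines. Centring each chromosome gave 3 lower in KMF, 4 lower in β-catenin ΔGSK, 3 higher and 2 lower in FAK-WT and 0 lower in FAK-R454 cells, and 1 higher and 6 lower in FAK-WT over KMF cells. It turned the change of Ercc3 from -0.30 to 0.15 in KMF and from -0.23 to 0.09 in FAK-WT cells, and that of Rbbp8 from -0.38 to 0.11 in β-catenin ΔGSK cells. Median-of-ratios scaling gave 5 lower in β-catenin ΔGSK, 3 in FAK-WT and 0 in FAK-R454 cells. Over all genes it moved the split from 1851 higher and 2986 lower to 2372 and 2078 in FAK-WT, and from 2828 and 4100 to 3654 and 3161 in β-catenin ΔGSK cells. The call of Parp1 in FAK-R454 cells was lost without the filter (0 lower), without the trend (0 lower, 1 higher) and in 1 fit of all 14 samples (0 lower, 1 higher), while limma-voom gave 1 higher and 3 lower there and 4 lower in FAK-WT cells. In FAK-WT over FAK-R454 cells, 1 fit of all samples gave 1 lower. The cause of these shifts was not tested.

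Leaving out 1 sample at a time gave 15 to 18 higher and 3 to 7 lower in KMF, 10 to 13 and 5 to 8 in β-catenin ΔGSK, 2 to 11 and 2 to 8 in FAK-WT, and 0 to 3 and 0 to 3 in FAK-R454 cells against FAK KO. It gave 0 to 4 and 0 to 4 in FAK-WT over FAK-R454, 1 to 3 and 7 to 12 in FAK-WT over KMF cells, and 30 to 35 among the 5 lines. Counts moved by more than 1.5 times in KMF cells without KMF replicate 1 (3 lower) and in β-catenin ΔGSK cells without FAK KO replicate 3 (5 lower). In FAK-WT cells they did so without FAK KO replicate 1 (2 higher, 4 lower) or 3 (2 and 2) and FAK-WT replicate 1 (3 and 3), 2 (3 and 2) or 3 (11 higher). In FAK-R454 cells they did so without FAK KO replicate 1 (1 higher), 2 (3 and 3) or 3 (0 lower) or either FAK-R454 sample (0 lower). Against KMF, FAK-WT cells had 1 higher without KMF replicate 1 or 2 or FAK-WT replicate 2, and 7 lower without KMF replicate 1. Where 1 FAK-R454 sample remained, it was assumed to vary like the other line. Without FAK KO replicate 2 alone, Brip1, Chek1, Ercc5, Fancb and Fanci lost their calls in KMF and Parp2 in FAK-WT cells. Blm and Fanci lost theirs in β-catenin ΔGSK cells. The same omission added calls of Fancg and Rad50 in KMF, Atr, Ercc2 and Rbbp8 in FAK-WT, and Xrcc1 in β-catenin ΔGSK cells. Other calls that left-out samples ended include Rad52 and Xpa in KMF, Fancf, Polh, Xrcc1, Msh6, Ercc5 and Xpc in FAK-WT against FAK KO, and Xpc, Bard1, Rad51c and Rad54b in FAK-WT over KMF cells. Of 73 changes of members chosen for full statistics, 27 kept their direction and side of the threshold under every setting other than left-out samples.

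The replicate numbers recur in each line, but same-numbered samples did not deviate together in every pair. Their correlations across genes ran with FAK KO from -0.25 to 0.14 for KMF, from -0.21 to -0.05 for FAK-WT, from -0.09 to -0.06 for FAK-R454 and from 0.08 to 0.45 for β-catenin ΔGSK cells. With the replicate number as a block, KMF cells had 15 higher and 5 lower, β-catenin ΔGSK 15 and 9, FAK-WT 5 and 5 and FAK-R454 0 and 0. The block gave 4 higher and 3 lower in FAK-WT over FAK-R454 cells, a fit that in effect leaves out FAK-WT replicate 3.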

Other observations

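The repair genes below the filter can be given only as levels. Rad51b, a gene of homologous recombination, was 0.274 to 0.435 FPKM in KMF and 0.305 to 0.378 FPKM in FAK KO samples. It was 0.487 to 0.686 FPKM in FAK-WT, 0.538 and 0.594 FPKM in FAK-R454 and 0.425 to 0.627 FPKM in β-catenin ΔGSK samples, so that the 3 lines carrying a viral construct lay above the FAK KO samples. Palb2, which links Brca1 to Brca2, was 0.869 to 1.14 FPKM in KMF and 0.619 to 0.885 FPKM in the other lines.

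In FAK-R454 cells, 13 of 44 repair genes lay wholly above the 3 FAK KO samples and 9 wholly below, although 0 and 1 were called, and 55.1% of all genes tested did not overlap in that comparison. Rad54l is an example, with 1.39 and 1.51 FPKM in FAK-R454 against 0.956 to 1.27 FPKM in FAK KO samples, and a change that was not called (0.38, limma adjusted p = 0.170).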
